A study of Saccharomyces cerevisiae with 14 samples.

Results

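The 10 genes that make and break down trehalose in budding yeast (TPS1, TPS2, TPS3, TSL1, NTH1, NTH2, ATH1, PGM1, PGM2 and UGP1) were taken by gene symbol from a table of 5886 genes and followed across its 14 RNA-seq libraries. All 10 were found, and all 10 averaged 1 FPKM or more over the 14 libraries, the filter that 5727 genes passed (FPKM, fragment counts scaled by transcript length and library depth). The study perturbed genes that a model had proposed as regulators of replicative lifespan and asked how the transcriptome of each mutant differed from wild type. The WT strain was BY4741, a haploid MATa S288C derivative carrying his3Δ1, leu2Δ0, met15Δ0 and ura3Δ0, and every mutant was built in it and shares those alleles. In MSB3Δ, NIT3Δ and HSP26Δ a drug or histidine marker cassette replaced the open reading frame (MSB3, a GTPase-activating protein, NIT3, a nitrilase family member, and HSP26, a small heat shock protein). TYS1, the essential tyrosyl-tRNA synthetase, was instead lowered by DAmP, in which a KanR cassette directly behind the reading frame destabilises the mRNA. Cells were harvested in log phase from YPD with glucose. There were 3 libraries of each mutant and 2 of WT analysed here. Whether each mutant was 1 clone was not given in the sources used here, so p-values measure the spread between these libraries. RNA of a bulk culture cannot tell a change in every cell from a change in a share of the cells.

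Trehalose is a sugar made of a pair of linked glucose units, which yeast stores together with glycogen and which shields proteins and membranes during stress. Phosphoglucomutase (PGM1 and PGM2 encode the minor and the major isoform) turns glucose 6-phosphate into glucose 1-phosphate, and UGP1 makes UDP-glucose from it. The synthase complex then joins UDP-glucose to glucose 6-phosphate (TPS1) and removes the phosphate (TPS2), with TSL1 and TPS3 as its large paralogous regulatory subunits. Trehalose is cleaved back to glucose by the neutral trehalase NTH1, its paralog NTH2 and the acid trehalase ATH1. Many genes of stress and reserve carbohydrate metabolism are induced through the stress response element AGGGG, which the factors Msn2 and Msn4 bind.

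By the R64 annotation the synthase complex genes are TPS1 (YBR126C, chrII:488905-490392), TPS2 (YDR074W, chrIV:593893-596583), TPS3 (YMR261C, chrXIII:790205-793369) and TSL1 (YML100W, chrXIII:70624-73920). The trehalase genes are NTH1 (YDR001C, chrIV:450220-452475), NTH2 (YBR001C, chrII:238941-241283) and ATH1 (YPR026W, chrXVI:615379-619014), and the precursor genes are PGM1 (YKL127W, chrXI:203541-205253), PGM2 (YMR105C, chrXIII:475897-477606) and UGP1 (YKL035W, chrXI:369891-371390). The coordinates span the coding sequence, which in each of the 10 genes is annotated as a single exon without an intron.

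The region before each start codon was searched because most of the 10 genes were higher together. In the 500 bases before the start codon (genome build R64), AGGGG on either strand, that is AGGGG or CCCCT, occurred 6 times before TPS1, 5 times before TSL1 and PGM2, 4 times before TPS2 and UGP1, 3 times before NTH1 and PGM1, 2 times before TPS3, 1 time before ATH1 and 0 times before NTH2. Of the 6006 such windows of nuclear protein-coding genes, 34.1% held at least 1 match, 8.2% at least 2, 1.8% at least 3 and 0.4% at least 4. The 5 genes with 4 or more matches were thus all synthase, PGM2 or UGP1 genes, and the trehalases held fewer. The sequence TATAAA on either strand was present before 9 of the 10 genes, TPS2 being the exception, against 60.5% of all windows. A match is a description of the letters only, since nothing was measured on these regions. The windows of TPS1, TPS3, TSL1, NTH2, PGM2 and UGP1 reach into a neighbouring or overlapping annotated reading frame. For the genes on which the results turn, the 140 bases with the most matches, ending more than 100 bases before the start codon, are given 5′ to 3′ on the gene's strand with AGGGG and CCCCT in capitals.
TPS1, chrII:490619-490758, minus strand: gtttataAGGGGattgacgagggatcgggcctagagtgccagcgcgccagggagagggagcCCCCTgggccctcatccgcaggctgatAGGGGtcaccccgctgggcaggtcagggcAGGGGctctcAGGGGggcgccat
TPS2, chrIV:593393-593532, plus strand: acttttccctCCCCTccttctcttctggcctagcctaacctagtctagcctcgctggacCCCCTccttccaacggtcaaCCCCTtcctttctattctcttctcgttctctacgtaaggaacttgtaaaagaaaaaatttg
TSL1, chrXIII:70359-70498, plus strand: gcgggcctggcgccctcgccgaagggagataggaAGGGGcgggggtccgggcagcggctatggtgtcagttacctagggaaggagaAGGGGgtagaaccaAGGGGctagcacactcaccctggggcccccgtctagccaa
PGM2, chrXIII:477795-477934, minus strand: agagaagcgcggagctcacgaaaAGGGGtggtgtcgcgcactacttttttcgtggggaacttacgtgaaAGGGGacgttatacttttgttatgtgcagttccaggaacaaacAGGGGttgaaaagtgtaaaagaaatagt
NTH1, chrIV:452749-452888, minus strand: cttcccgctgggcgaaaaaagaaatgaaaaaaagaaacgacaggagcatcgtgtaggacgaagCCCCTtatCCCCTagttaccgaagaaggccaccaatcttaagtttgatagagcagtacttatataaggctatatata
PGM1, chrXI:203041-203180, plus strand: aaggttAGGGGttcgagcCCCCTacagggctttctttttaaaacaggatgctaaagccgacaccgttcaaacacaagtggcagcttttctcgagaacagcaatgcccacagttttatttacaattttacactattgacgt

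The 5 capital blocks in the TPS1 stretch lie between 366 and 227 bases before its start codon. Of these, 4 are AGGGG on the coding strand and 1 is CCCCT. The TSL1 stretch held 3 AGGGG runs on the coding strand, and so did that of PGM2. All 3 matches in the TPS2 stretch and both in that of NTH1 were on the opposite strand. In the PGM1 stretch, both capital blocks fall inside a tRNA gene (YNCK0007W, chrXI:202999-203071), so that 2 of the 3 PGM1 matches are tRNA sequence. None of the printed stretches overlaps an annotated reading frame. How many matches elsewhere in the windows lie inside a reading frame was not counted, so the other genes' totals may include such matches.

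**Figure D1:**
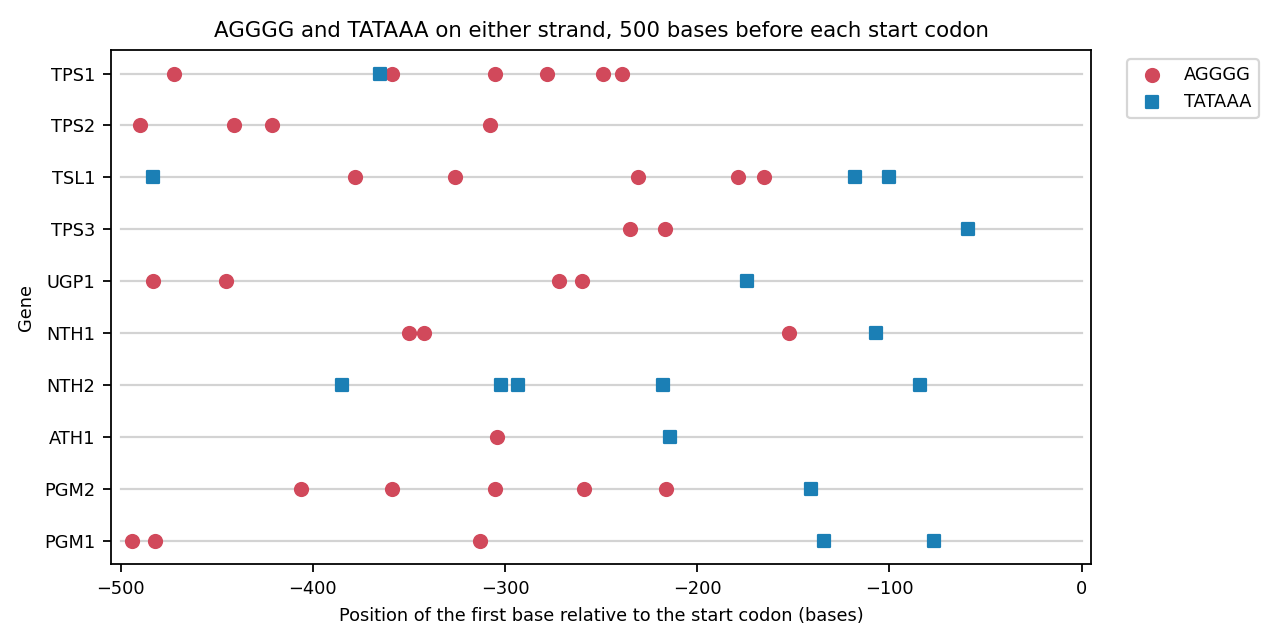
Position of AGGGG (circles) and TATAAA (squares), on either strand, in the 500 bases before the start codon of each trehalose gene. The x axis gives bases relative to the start codon and each line is a gene. TPS1 carried 6 AGGGG matches, TSL1 and PGM2 carried 5, and NTH2 carried 0.

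Before the values, the libraries were checked. The targeted genes followed the labels, with MSB3 at most 0.02 FPKM in MSB3Δ, NIT3 at most 0.28 in NIT3Δ, HSP26 at most 0.15 in HSP26Δ, and TYS1 at 66.2 to 82.5 in TYS1 DAmP against 512 and 563 in WT. STE2, the MATa pheromone receptor, was at 90.5 FPKM or more and the MATalpha factor gene MF(ALPHA)1 at 2.13 or less in every library. The other mating-type markers separated less. The MATa genes BAR1 and AGA2 were at 3.61 to 176 and 40.8 to 1116 FPKM. The MATalpha genes MF(ALPHA)2, STE3 and SAG1 were at 4.97 to 10.7, 4.99 to 19.5 and 10.4 to 27.0. In HSP26Δ replicates 1 and 3 BAR1, at 6.36 and 3.61, was below each of these MATalpha genes. MET17, the gene deleted by met15Δ0, was at 0.03 or less. HIS3 was read at 122 to 231 FPKM in all libraries, all of which carry his3Δ1, and which part of the gene these reads cover was not examined. Depth, estimated from the steps between low FPKM values, was about 20700000 to 25100000 fragments a library, so that each member value rests on at least 469 fragments (ATH1) and has a counting error of at most 4.62%. For NTH2 and ATH1 this is about as large as the spread between the WT libraries. Ribosomal protein genes, whose share falls when growth slows, made up 48.4% and 47.0% of the FPKM sum in WT and less in all 12 mutant libraries. For MSB3Δ it was 30.1%, 43.7% and 43.0%, for NIT3Δ 41.5%, 18.0% and 43.4%, for HSP26Δ 38.6%, 45.5% and 41.7%, and for TYS1 DAmP 40.0%, 41.8% and 46.0%. NIT3Δ replicate 2 and MSB3Δ replicate 1 stood apart. FPKM are shares of a library, so a lower ribosomal share raises other values. The part of this share in the results was not tested, and the counts of genes called after median-ratio scaling are given beside the main counts.

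In WT, UGP1 had the highest level of the 10 genes per length of transcript, 256 ± 10.2 FPKM (SD, n = 2). It was followed by TPS1 at 205 ± 13.0, PGM2 at 162 ± 16.0, PGM1 at 108 ± 2.76, TPS2 at 101 ± 13.3, NTH1 at 85.4 ± 15.8 and TSL1 at 81.2 ± 6.61. TPS3, NTH2 and ATH1 were lowest, at 36.3 ± 1.65, 20.9 ± 0.57 and 6.71 ± 0.36 FPKM. The ranges of neighbours in this order overlapped for PGM1 and TPS2, TPS2 and NTH1, and NTH1 and TSL1, and stood apart for the other pairs. The neutral trehalase NTH1 was thus the main trehalase transcript in WT, and TSL1 exceeded its paralog TPS3. In the mutants the order was TPS1 or UGP1 first, then PGM2, TPS2, TSL1 and NTH1, with PGM1 dropping from the fourth place to the seventh in every mutant. TPS3, NTH2 and ATH1 kept the last 3 places. The ranges of TPS1 and UGP1 overlapped in each mutant.

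The catalytic synthase gene TPS1 stood at 196 and 214 FPKM in the WT libraries. MSB3Δ had 397, 317 and 424, NIT3Δ 400.5, 855 and 368, HSP26Δ 574, 275 and 405, and TYS1 DAmP 618, 284 and 324. All 12 mutant libraries were above both WT libraries, with 855 in NIT3Δ replicate 2 the highest value and 275 in HSP26Δ replicate 2 the lowest. The log2 fold change (limma on log2(FPKM + 1), with its SE) was 0.88 ± 0.21 for MSB3Δ, 1.29 ± 0.40 for NIT3Δ, 0.96 ± 0.29 for HSP26Δ and 0.91 ± 0.34 for TYS1 DAmP. Each passed the thresholds of the study, a fold change above 1.5 with an unadjusted p under 0.05. The p is that of the limma fit here, which calls more genes than the study reported. A gene that passed is therefore not by that a gene called by the study.

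The phosphatase gene TPS2 was at 92.0 and 111 FPKM in WT. MSB3Δ showed 167, 143 and 195, NIT3Δ 224, 368 and 190.0, HSP26Δ 313, 138 and 217, and TYS1 DAmP 276, 154 and 149.5. No mutant library overlapped WT. TPS2 passed the thresholds in all 4 mutants, with log2 fold changes of 0.72 ± 0.21, 1.30 ± 0.33, 1.05 ± 0.33 and 0.87 ± 0.30 (SE) in the same order.

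The regulatory subunit gene TSL1 passed the thresholds in all 4 mutants, and its paralog TPS3 in 1 of them. TSL1 was at 76.5 and 85.9 FPKM in WT. MSB3Δ had 146, 132 and 166, NIT3Δ 181, 403 and 164, HSP26Δ 258, 117 and 162, and TYS1 DAmP 208, 122 and 111, with no overlap. Its log2 fold changes were 0.85 ± 0.19, 1.48 ± 0.41, 1.06 ± 0.31 and 0.80 ± 0.29 (SE) in MSB3Δ, NIT3Δ, HSP26Δ and TYS1 DAmP. TPS3 was at 35.2 and 37.5 FPKM in WT. MSB3Δ gave 45.3, 41.1 and 48.1, NIT3Δ 49.0, 81.3 and 44.2, HSP26Δ 72.5, 42.3 and 56.8, and TYS1 DAmP 55.6, 40.7 and 40.2. These values also lay above both WT libraries in all 12, but TPS3 passed the thresholds only in HSP26Δ (0.61 ± 0.22, SE). There the call was lost under 6 of 13 alternatives, among them median-ratio scaling (0.51) and the fit without HSP26Δ replicate 1 (0.42). In TYS1 DAmP the calls of TPS1 and NTH1 were also lost under 6 of 13 alternatives, and that of TSL1 under 5. Within a library, where a scaling factor cancels apart from the pseudocount, TSL1 exceeded TPS3 by 1.10 and 1.17 log2 units in WT and by 1.44 to 2.29 in the 12 mutant libraries. The reading frames of both genes are 67.2% identical over their aligned bases and share no exact run longer than 15 bases.

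**Figure D2:**
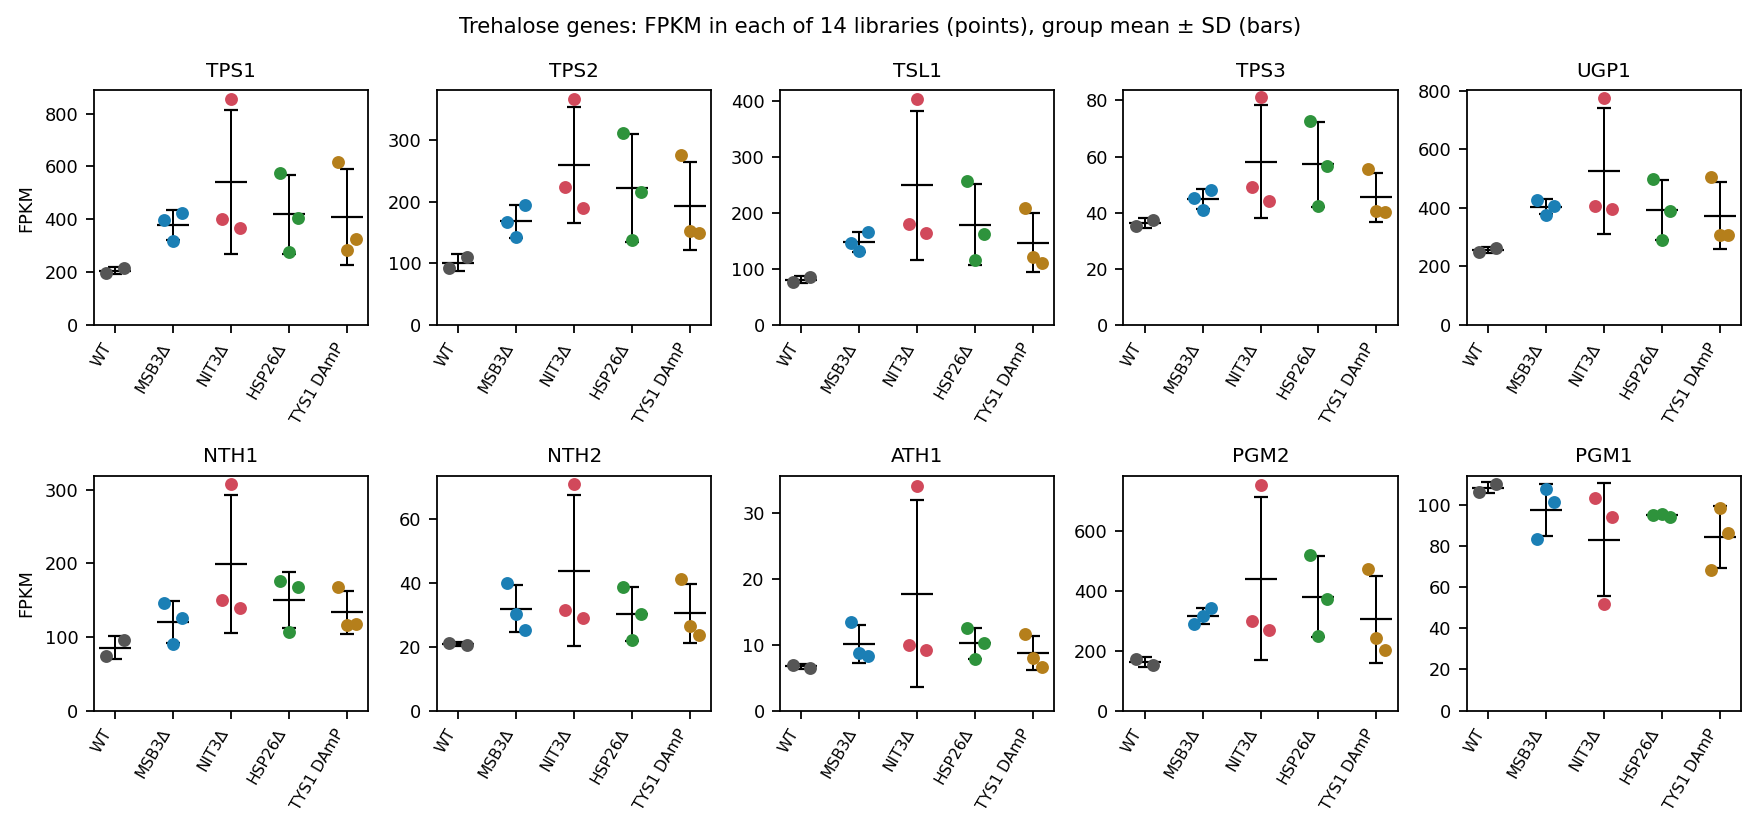
FPKM of each trehalose gene (y axis, from 0) in the 14 libraries by group (x axis), with points for libraries and bars for the group mean ± SD. For TPS1, TPS2, TSL1, TPS3, UGP1, NTH2 and PGM2 all 12 mutant points lie above both WT points, and 11 of the 12 mutant points of PGM1 lie below both.

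Of the precursor genes, PGM2 passed the thresholds in 3 mutants, UGP1 in 2 and PGM1 in none. PGM2 was at 174 and 151 FPKM in WT. MSB3Δ reached 289, 317 and 341, NIT3Δ 297, 753 and 270.3, HSP26Δ 518, 249 and 372, and TYS1 DAmP 471, 242 and 201, again without overlap. Its log2 fold change of 0.96 ± 0.19 passed in MSB3Δ, as did 1.27 ± 0.46 for NIT3Δ and 1.16 ± 0.30 for HSP26Δ, and 0.81 ± 0.36 for TYS1 DAmP missed the p threshold. UGP1 was at 249 and 263 FPKM in WT. MSB3Δ reached 427, 376 and 407, NIT3Δ 405, 776 and 397, HSP26Δ 498, 292 and 390.3, and TYS1 DAmP 506, 309 and 306. It passed in MSB3Δ (0.65 ± 0.18, SE) and NIT3Δ (0.96 ± 0.35), while the values in HSP26Δ and TYS1 DAmP were 0.58 ± 0.24 and 0.50 ± 0.25.

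PGM1 values lay mostly below those of WT. Its level was 106 and 110.4 FPKM in WT. MSB3Δ gave 83.5, 108 and 102, NIT3Δ 103, 51.7 and 94.1, HSP26Δ 95.1, 95.5 and 94.2, and TYS1 DAmP 68.4, 98.5 and 86.4. Of the 12 mutant libraries 11 were below both WT libraries, the exception being MSB3Δ replicate 2, and after median-ratio scaling all 12 were, as for 6.09% of all genes tested. The log2 fold changes of -0.16 ± 0.19, -0.44 ± 0.33, -0.19 ± 0.13 and -0.37 ± 0.19 (SE) passed no threshold. They rest in part on single libraries, since the value was -0.05 without MSB3Δ replicate 1, -0.14 without NIT3Δ replicate 2 and -0.23 without TYS1 DAmP replicate 1. PGM1 was the only one of the 10 genes with all 3 libraries below both WT in NIT3Δ, HSP26Δ and TYS1 DAmP, as were 9.57%, 13.2% and 12.4% of all genes tested. PGM2 exceeded PGM1 by 0.70 and 0.45 log2 units in WT and by 1.21 to 3.84 in the mutant libraries, the largest difference being in NIT3Δ replicate 2. Their summed level was 261 and 280.0 FPKM in WT and 287 to 805 in the mutants. The 2 reading frames are 72.8% identical, with no shared exact run over 23 bases.

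Of the trehalase genes, NTH1 passed in 3 of the 4 mutants and the others in none. NTH1 was at 74.2 and 96.6 FPKM in WT. MSB3Δ showed 146, 90.3 and 126, NIT3Δ 150.0, 307 and 139.6, HSP26Δ 176, 107 and 168, and TYS1 DAmP 168, 117 and 117. The only overlap was MSB3Δ replicate 2, which fell between the WT libraries. NTH1 passed the thresholds in NIT3Δ (1.13 ± 0.38, SE), HSP26Δ (0.79 ± 0.25) and TYS1 DAmP (0.63 ± 0.23), and in MSB3Δ its value was 0.48 ± 0.25. NTH2, at 21.3 and 20.5 FPKM in WT and 22.0 to 71.2 in the mutants, was above both WT libraries in all 12. ATH1, at 6.96 and 6.45 in WT and 6.57 to 34.1 in the mutants, was above both in 11, TYS1 DAmP replicate 3 lying between them. Neither passed in any mutant, with log2 fold changes of 0.48 to 0.92 for NTH2 and 0.30 to 1.03 for ATH1. The upper ends are those of NIT3Δ, and without NIT3Δ replicate 2 they were 0.51 for NTH2 and 0.46 for ATH1. In MSB3Δ, NTH2 had a value of 0.57, which became 0.59 with a pseudocount of 0.1, 0.39 with median-ratio scaling and 0.40 without MSB3Δ replicate 1.

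By count, at a fold change above 1.5 and unadjusted p under 0.05, 5 of the 10 genes were higher in MSB3Δ (3.93% of all genes tested were), 6 for NIT3Δ (4.31%), 6 for HSP26Δ (5.67%) and 4 for TYS1 DAmP (3.34%). TPS1, TPS2 and TSL1 were in each of these 4 sets. At a fold change below 0.7 with the same p, 0 of the 10 were lower, against 0.559%, 0.506%, 2.41% and 1.64% of all genes. The number with all 3 libraries above both WT was 8 for MSB3Δ, 9 for NIT3Δ, 9 for HSP26Δ and 8 for TYS1 DAmP, against 26.1%, 38.6%, 27.6% and 20.4% of all genes. Over the 10 genes the log2 fold changes had a median of 0.61, 1.08, 0.70 and 0.57, beside 0.18, 0.28, 0.08 and 0.07 over all genes tested. The median of all genes thus lay above 0 in each mutant. Relative to it TSL1 was higher by 0.68, 1.20, 0.98 and 0.73, and TPS3 by 0.12, 0.33, 0.53 and 0.24. PGM1 was at -0.34, -0.73, -0.27 and -0.44 relative to that median. After Benjamini-Hochberg adjustment over all 5727 genes, limma called 0 of the 10 in any mutant, against 0.0175%, 0.0175%, 0.0349% and 0.0873% of all genes. In MSB3Δ and NIT3Δ the only gene called was the deleted gene itself. HSP26 and TYS1 were likewise among those called in their own mutants. At an unadjusted p under 0.05, in either direction, limma called 6, 6, 8 and 4 of the 10, against 6.44%, 5.05%, 15.6% and 7.74% of all genes, and the lowest adjusted p of a member was 0.398, 0.563, 0.200 and 0.614. After median-ratio scaling 3, 6, 5 and 3 of the 10 genes were higher, beside 2.60%, 2.55%, 4.30% and 2.95% of all genes. The scaling changed the numbers of all genes called higher and lower from 225 and 32 to 149 and 114 in MSB3Δ, from 247 and 29 to 146 and 89 in NIT3Δ, from 325 and 138 to 246 and 261 in HSP26Δ, and from 191 and 94 to 169 and 117 in TYS1 DAmP.

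**Figure D3:**
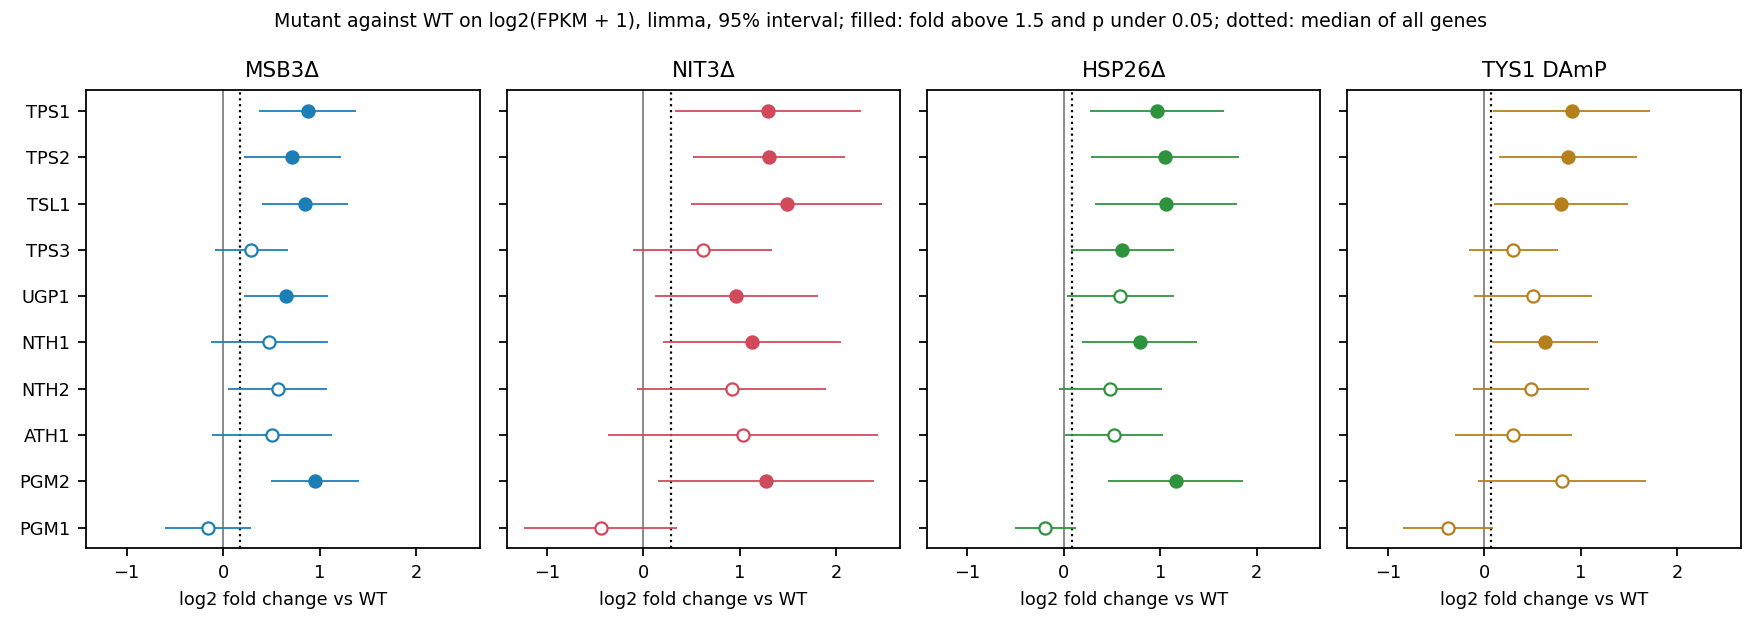
Log2 fold change of each trehalose gene (y axis) in each mutant against WT (x axis, on log2(FPKM + 1)), with the 95% interval of the limma fit. Filled points passed a fold change above 1.5 with unadjusted p under 0.05, and dotted lines mark the median of all genes tested (0.18, 0.28, 0.08 and 0.07). TPS1, TPS2 and TSL1 are filled in all 4 panels and PGM1 lies below 0 in each.

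All 4 comparisons share the same 2 WT libraries. Without WT replicate 1, the lower of the 2 for 7 of the 10 genes, the counts fell from 5, 6, 6 and 4 to 2, 2, 1 and 0, beside 1.99%, 0.73%, 4.10% and 1.82% of all genes. Without WT replicate 2 they were 4, 3, 5 and 2, beside 1.61%, 0.75%, 4.63% and 1.55%. The fold changes moved less than the calls. Without WT replicate 1, TPS1 in NIT3Δ had 1.23 in place of 1.29, TPS2 in NIT3Δ 1.17 in place of 1.30, and PGM2 in HSP26Δ 1.26 in place of 1.16. In TYS1 DAmP the count was also 0 without replicate 1 of the mutant, the library with the highest level of 9 of the 10 genes. The values of TPS1, TPS2 and TSL1 were then 0.57, 0.58 and 0.52, each under a 1.5-fold change. In that fit limma called 2 of the 10 genes at an adjusted p under 0.05, as it did 180 of all genes.

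The libraries that stood apart in ribosomal share were left out in turn. NIT3Δ replicate 2 (ribosomal share 18.0%) held the highest level of 9 genes and the lowest level of PGM1 among the 14 libraries. Without it the same count of 6 genes was higher, and TPS1, TPS2 and TSL1 had values of 0.91, 1.02 and 1.08 in place of 1.29, 1.30 and 1.48. The spread between the remaining NIT3Δ libraries was smaller, and limma then called 6 of the 10 at an adjusted p under 0.05, as it did 230 of all genes. Without MSB3Δ replicate 1 (30.1%), 5 genes were still higher, with 0.84 for TPS1, 0.72 for TPS2, 0.86 for TSL1 and 1.02 for PGM2.

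Considering all mutants at once, 7 of the 10 genes were above both WT libraries in all 12 mutant libraries, as were 7.86% of all genes tested. After median-ratio scaling these were 5 (TPS1, TPS2, TSL1, PGM2 and UGP1), against 4.16% of all genes. In 1 fit over the 14 libraries, the mean of the 4 mutants differed from WT by a log2 fold change of 1.01 ± 0.34 for TPS1, 0.98 ± 0.31 for TPS2, 1.05 ± 0.34 for TSL1 and 1.05 ± 0.37 for PGM2 (SE). The values were 0.76 ± 0.29 for NTH1, 0.68 ± 0.27 for UGP1, 0.61 ± 0.31 for NTH2, 0.59 ± 0.38 for ATH1, 0.45 ± 0.23 for TPS3 and -0.29 ± 0.22 for PGM1. At a fold change above 1.5 and unadjusted p under 0.05, 6 of the 10 genes were higher (3.34% of all genes), with NTH2 and ATH1 past the fold but not the p. None of the 10 passed an adjusted p under 0.05 (limma adjusted p = 0.663 for each), where 0.0175% of all genes were called higher. Without NIT3Δ replicate 2 and MSB3Δ replicate 1, a choice made after the data were seen, the values were 0.90 for TPS1, 0.92 for TPS2, 0.95 for TSL1 and PGM2, and 0.63 for NTH1, and 0 of the 10 passed the adjustment.

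The mutants were also set against each other, in 60 tests of 10 genes over 6 pairs. None passed an adjusted p under 0.05 and 0 had an unadjusted p under 0.05 (limma, adjusted over all genes in each pair). Of all genes, 0.0349% were called in each of the 3 pairs with MSB3Δ and between NIT3Δ and HSP26Δ, 0.21% between NIT3Δ and TYS1 DAmP, and 0.0524% between HSP26Δ and TYS1 DAmP. The lowest p was for NTH1 between MSB3Δ and NIT3Δ, a difference of -0.65 log2 units with a 95% interval from -1.32 to 0.03 (limma adjusted p = 0.997). Next was TSL1 between NIT3Δ and TYS1 DAmP, at 0.69 with an interval from -0.09 to 1.46 (limma adjusted p = 0.546). For TPS1 the interval between MSB3Δ and TYS1 DAmP ran from -0.82 to 0.76 and that between MSB3Δ and HSP26Δ from -0.88 to 0.70, so these intervals leave room for a difference in either direction.

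Synthesis and breakdown genes were then compared within each library. The mean log2(FPKM + 1) of TPS1, TPS2, TPS3 and TSL1 exceeded that of NTH1, NTH2 and ATH1 by 1.84 and 1.92 in WT. MSB3Δ gave 1.72, 2.06 and 2.36, NIT3Δ 2.16, 1.80 and 2.11, HSP26Δ 2.41, 2.08 and 2.12, and TYS1 DAmP 2.25, 2.00 and 2.13. It lay above both WT libraries in 10 of the 12, the exceptions being MSB3Δ replicate 1 and NIT3Δ replicate 2, the libraries with the lowest ribosomal share. The group means exceeded that of WT by 0.17, 0.15, 0.32 and 0.24, with SDs of 0.32, 0.20, 0.18 and 0.13 (n = 3). As a level, the 4 synthase genes summed to 399 and 448 FPKM in WT and 572 to 1707 in the mutants, and the 3 trehalase genes to 102 and 124 in WT and 129 to 413 in the mutants.

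**Figure D4:**
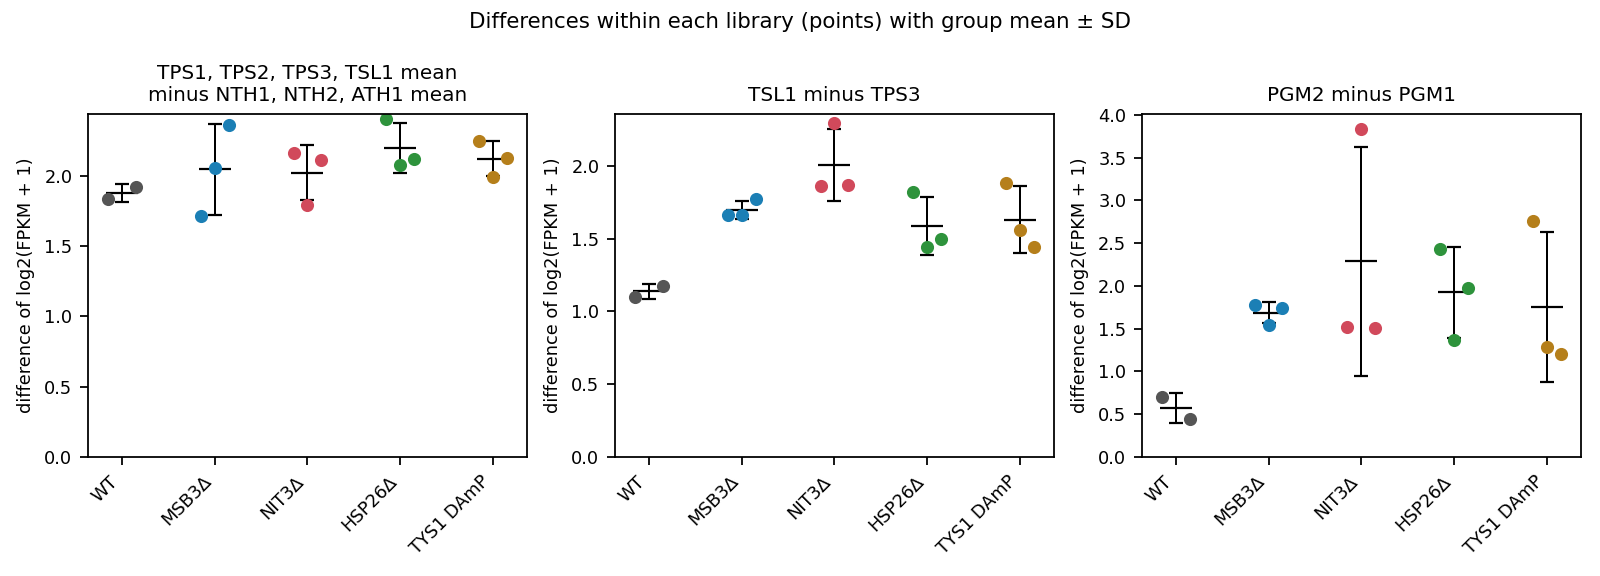
Differences of log2(FPKM + 1) within each library (y axis) by group (x axis), for the synthase complex genes against the trehalases, TSL1 against TPS3, and PGM2 against PGM1, with points for libraries and bars for mean ± SD. TSL1 minus TPS3 is 1.10 and 1.17 in WT and at least 1.44 in every mutant library, and PGM2 minus PGM1 is 0.70 and 0.45 in WT and at least 1.21 in every mutant library.

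The general stress genes HSP12 (a membrane heat shock protein), CTT1 (cytosolic catalase), DDR2, SPG4 and the disaggregase gene HSP104 were read beside the trehalose genes. HSP12 was at 95.7 and 132 FPKM in WT. MSB3Δ had 1616, 624 and 167, NIT3Δ 266, 5459 and 600.4, HSP26Δ 133, 148 and 77.8, and TYS1 DAmP 219, 359 and 195. At the same thresholds 3 of the 5 were higher in MSB3Δ, 4 for NIT3Δ, 0 for HSP26Δ and 2 for TYS1 DAmP. The shares of all genes tested were 3.93%, 4.31%, 5.67% and 3.34%. In NIT3Δ replicate 2 the HSP12 level was 48.0 times the WT mean and that of TPS1 4.18 times. In HSP26Δ replicate 1 the corresponding ratios were 1.17 and 2.81, while CTT1 was at 2.12 times the WT mean, DDR2 at 2.00, HSP104 at 1.61 and SPG4 at 0.98. In HSP26Δ, DDR2 (0.71 ± 0.35, SE) and HSP104 (0.61 ± 0.31) were past the fold but not the p. The median log2 fold change of the 5 stress genes there was 0.58, beside 0.70 for the 10 trehalose genes, and the difference between the lists was not tested. HSP104 itself differed between the WT libraries, at 399 and 848 FPKM.

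Other genes of the pathway and its control were read from lists of the pathway. Of the hexose kinases and the isomerase, the glucokinase GLK1 was higher in all 4 mutants (337 and 368 FPKM in WT, 468 to 1383 in the mutants) and the hexokinase HXK1 in MSB3Δ, NIT3Δ and TYS1 DAmP (452 and 424 in WT, 460.0 to 2352 in the mutants). The main growth-phase hexokinase HXK2 and phosphoglucose isomerase PGI1 passed in none, with log2 values of -0.05 and -0.02 for the mean of the 4 mutants. Among trehalase regulators DCS2 was higher in all 4 mutants. All 12 mutant libraries were above both WT for it (90.3 to 447 FPKM against 60.8 and 52.2), as for 7.86% of all genes tested. Its paralog DCS1, whose product has been described as a neutral trehalase inhibitor, and the 14-3-3 genes BMH1 and BMH2 passed in none. Of the 4 stress regulators MSN2, MSN4, RIM15 and GIS1, GIS1 was higher in NIT3Δ, HSP26Δ and TYS1 DAmP and MSN4 in NIT3Δ, and MSN2 and RIM15 passed in none. Of 7 glycogen genes 6, 4, 5 and 3 were higher in the 4 mutants, beside 3.93%, 4.31%, 5.67% and 3.34% of all genes tested. Glycogen synthase GSY2 and the branching enzyme GLC3 were among them in all 4. None of the genes in these lists was lower, and none passed an adjusted p under 0.05 in any mutant.

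**Figure D5:**
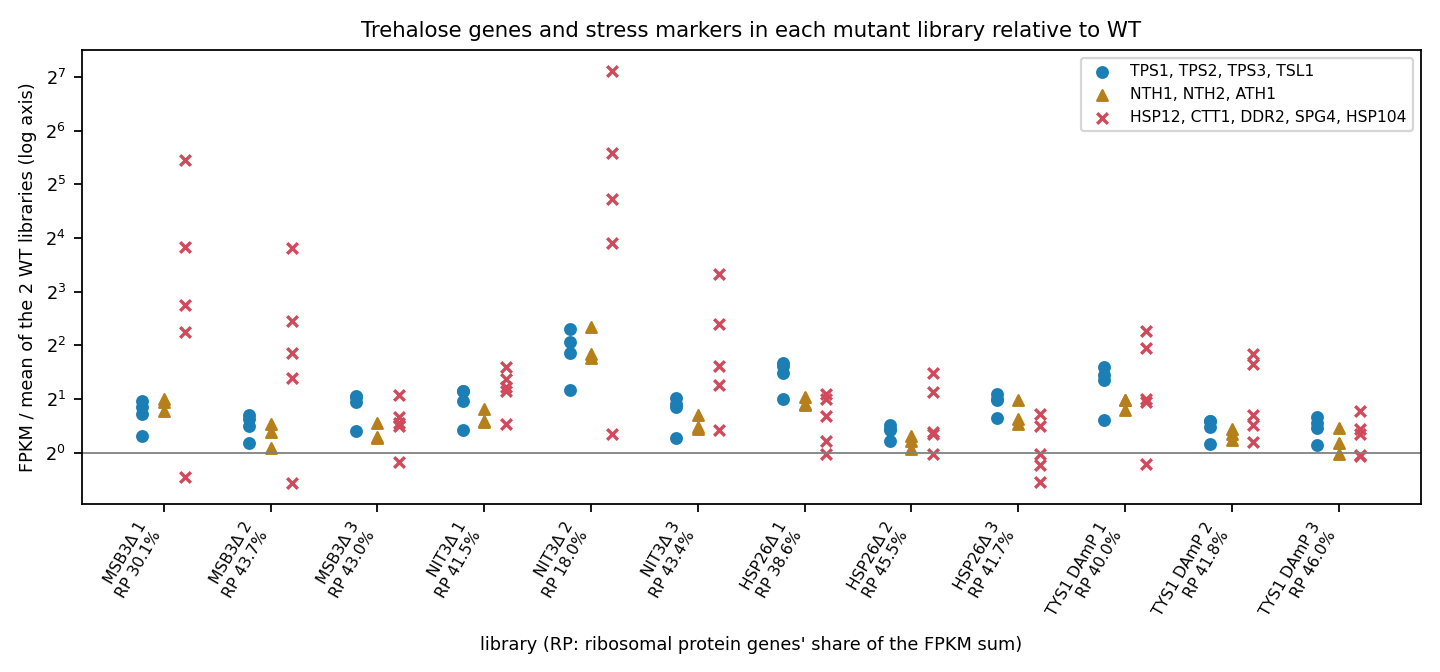
FPKM relative to the mean of the 2 WT libraries (log axis) in each mutant library (x axis, with the ribosomal protein share), for the synthase genes (circles), the trehalases (triangles) and 5 stress markers (crosses). In NIT3Δ replicate 2 HSP12 reached 48.0 times WT and TPS1 4.18 times, and in HSP26Δ replicate 1 the values were 1.17 and 2.81, with CTT1 at 2.12.

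The genes outside the 10 whose levels followed the synthase genes most closely were HER1, GSY2, MAM3, and the eisosome genes LSP1 and EIS1, with Pearson r of 0.984, 0.980, 0.967, 0.963 and 0.962 over the 14 libraries. For the trehalases they were PFK26 (a 6-phosphofructo-2-kinase), DGR2, VPS8 (a vesicle tethering factor), PEX30 (a peroxisome and ER membrane protein) and BBC1 (an actin patch protein), at 0.986, 0.985, 0.984, 0.984 and 0.981. Without NIT3Δ replicate 2 and MSB3Δ replicate 1 these 10 values were 0.951 to 0.976 (n = 12). Against the synthase profile, which includes 4 of them, the members themselves ranged from 0.852 (ATH1) to 0.990 (TSL1) except for PGM1 at -0.734. These correlations describe libraries that share groups and the ribosomal share, and carry no test.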

How the data were processed

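RNA of 14 log-phase yeast cultures was sequenced on a BGISEQ-500. The deposited values are FPKM per gene and library, made by the authors. The submitters' processing notes name HISAT2 2.1.0, Bowtie2, RSEM 1.3.1, DESeq2 1.4.5 and genome build R64. FPKM are relative to the library total, so a change in abundant transcripts shifts all other values.

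Here FPKM were tested as log2(FPKM + 1) with limma 3.58.1 (R 4.3.3), with trended, robust variances, for the 5727 of 5886 genes averaging 1 FPKM or more. A fold change on this scale understates changes of low genes such as ATH1. Each mutant was fitted with WT, and 1 fit over 5 groups gave the mean of the 4 mutants and the 6 pairs. Calls used a fold change above 1.5 or below 0.7 with p under 0.05, and separately Benjamini-Hochberg adjusted p. The script was tested on simulated data with less noise than these libraries and with no library that stood apart. That test therefore does not show how the fits behave on the spread seen here. The members, lists and tests were chosen with earlier results of these data known. All 10 members, genes of the listed pathways and the 5 genes most correlated with each profile were to be named, and the result of 1 further pathway list is not reported here. Alternatives were the pseudocount, the filter, median-ratio scaling, 1 shared fit, array weights, a replicate block, unlogged FPKM, and leaving out each library. Deviations from the group means of same-numbered libraries correlated above 0.1 in all 3 pairs only between HSP26Δ and TYS1 DAmP (0.207, 0.345 and 0.133). Between MSB3Δ and TYS1 DAmP the values were close to these, at 0.0949, 0.285 and 0.206. Between MSB3Δ and HSP26Δ they were -0.0996, 0.442 and 0.240, and the value for MSB3Δ and NIT3Δ replicate 1 was -0.774. Deviations of 3 libraries from their own mean are tied to each other, so these correlations cannot decide whether replicate numbers are pairs. A pairing of HSP26Δ and TYS1 DAmP is not given by the labels. Sequences were read from the RefSeq genome of R64, the same build. Protein comparisons were not made here. Python 3.11.15 was used for the rest.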

Additional observations from a re-analysis of the deposited data

How the results depend on the processing

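All 40 log2 fold changes (10 genes in 4 mutants) kept their direction under all 13 alternatives each, 520 values in all. Part of these are no check of direction. The filter settings and the shared fit leave the fold change itself unchanged and can only move its p. The replicate block gives the same fold change as leaving out mutant replicate 3. Of the 520, 437 stayed on the same side of the thresholds, 62 fell below them and 21 came to pass them. The numbers of genes called higher moved more. In MSB3Δ, 5 genes became 3 with median-ratio scaling, 3 with array weights and 0 in 1 fit over all 5 groups. In NIT3Δ and HSP26Δ, 6 became 0 with the linear model on unlogged FPKM. In TYS1 DAmP, 4 became 2 in the shared fit, 2 with array weights and 0 on unlogged FPKM. Leaving out each library in turn gave 2 to 7 in MSB3Δ, 2 to 7 in NIT3Δ, 1 to 9 in HSP26Δ and 0 to 5 in TYS1 DAmP, and 0 to 0 for genes called lower. A WT group of 1 library is assumed to vary like the mutant group. The mean of the 4 mutants gave 0 adjusted calls in every one of its alternatives. The cause was not tested.

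Replicate numbers are shared between groups, and deviations of same-numbered libraries of WT and a mutant correlated from -0.284 to 0.152. The deviations of the 2 WT libraries are mirror images, so these correlations cannot tell whether the numbers pair WT with the mutants. With a replicate block the counts were 7, 8, 6 and 6, beside 16.7%, 10.2%, 6.62% and 7.04% of all genes, and the third mutant library, which has no WT partner, then adds nothing. For HSP26Δ and TYS1 DAmP, a replicate block that treats same-numbered libraries as pairs was added to their own fit after the data were seen. In that fit 0 of the 10 genes differed at an adjusted p under 0.05 and 0 at an unadjusted one, beside 0.122% and 5.41% of all genes (limma). Among all genes, the number called higher ranged over the alternatives from 46 to 955 in MSB3Δ (main 225), 28 to 584 in NIT3Δ (247), 70 to 554 in HSP26Δ (325) and 45 to 403 in TYS1 DAmP (191). Adjusted calls reached 1834, 601, 468 and 432 of all genes. With array weights 7, 7, 4 and 4 of the 10 genes passed the adjustment, beside 1834, 601, 185 and 432 of the 5727 genes tested. Without HSP26Δ replicate 2, 7 of the 10 passed in HSP26Δ, beside 468 of all genes. With 2 WT libraries, small differences cannot be resolved.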
